A study of Rattus norvegicus with 12 samples.

Results

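The potassium channel genes of neonatal rat cardiac myocytes were taken as all genes whose symbol on the array begins with Kcn followed by a letter, the symbols of pore-forming channel subunits and of the auxiliary subunits that bind them. Of 14507 genes measured, 83 were such genes. Intensity was read as log2 of the deposited value, and a gene was called bright at a mean of 8 or more over all 12 arrays and dim below that, which gave 27 bright and 56 dim genes. Kcna3 at 8.02 and Kcnk12 at 8.04 lay just inside the bright class, and Kcnj11 and Kcnip2, both at 7.98, just outside it. Kcna3 was under 8 on all untreated arrays, and Kcne4 and Kcnj2 were under 8 on all treated ones. The bright class of these genes thus rests on their other arrays. The median over all genes was 8.57. The files used here hold no detection calls, so a dim gene is a gene of low signal and not one shown to be absent. A probe set that names Kcnk5 and Kcnk16 together was left out.

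The myocytes came from Sprague Dawley rats and were primary cultures that, per the labels, were over 90% myocytes and had bromodeoxyuridine against fibroblasts. The 4 groups, of 3 arrays each, were cells with p300 siRNA after 8 h of 1 µM doxorubicin (Dox), cells with p300 siRNA at 0 h of Dox, cells with non-silencing (NS) siRNA after 8 h of Dox, and NS cells at 0 h. p300, the product of Ep300, is a lysine acetyltransferase and transcriptional coactivator, and doxorubicin is an anthracycline that damages DNA and the heart. All cells had been transfected and then kept for 48 h without serum, so there was no untransfected group, and the labels do not give the number of animals behind a culture. No group was kept for 8 h without Dox, so the drug and 8 more hours in culture cannot be told apart. Arrays at 0 h are called untreated, and a change with Dox means 8 h of Dox against 0 h. The design text states 3 experiments, each with all 4 groups.

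Potassium channels carry the outward currents that end the cardiac action potential and hold the resting potential. Voltage-gated channels pass the transient outward and delayed rectifier currents, inward rectifiers set the resting potential and respond to acetylcholine or ATP, and leak channels carry a background current. Auxiliary subunits alter the gating or the trafficking of the pores. An array measures RNA and not current, and in these mixed cultures fewer cells of a type and less RNA per cell cannot be told apart.

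Ep300 had log2 intensities of 10.10, 9.64 and 9.80 in p300 siRNA cells after 8 h of Dox and 10.41, 10.02 and 10.05 in p300 siRNA cells at 0 h, against 10.86, 10.72 and 10.72 in NS cells after 8 h and 11.16, 11.01 and 11.14 in NS cells at 0 h. Every p300 siRNA array was below every NS array of its time. The level with p300 siRNA was 52.9% of that in NS cells at 8 h (limma adjusted p = 0.0271) and 51.9% at 0 h (adjusted p = 0.0404). Averaged over both times the log2 change was -0.93 ± 0.089 (SE, adjusted p = 0.00212). Each of these calls was lost without experiment 2 or without experiment 3, when fewer arrays remained. The calls at 8 h and at 0 h were also lost with only the groups compared, and without any 1 of 8 arrays at 8 h or of 9 arrays at 0 h. All 10 myocyte markers were bright, and their summed level was 16.50 to 16.74 on every array. None of these 10 passed in either Dox comparison, whereas with the experiment as a block 3 rose and 1 fell in p300 siRNA cells.

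After 8 h of Dox, Kcnj5, Kcne4, Kcnk3, Kcng2 and Kcnj2 fell among the bright potassium channel genes in both siRNA groups, and Kcnq1 passed as lower in p300 siRNA cells only. Kcna3, Kcna6, Kcnk4 and Kcnn3 rose in both groups, and Kcnk2 passed as higher in NS cells only. In p300 siRNA cells 10 of 27 bright genes passed, 4 higher and 6 lower, and in NS cells 10 of 27, 5 higher and 5 lower. The rates among all bright genes were 17.5% higher and 26.2% lower in p300 siRNA cells, and 14.4% higher and 24.2% lower in NS cells. A gene passed at an adjusted p under 0.05 in a limma fit over all genes, without the experiment as a block. Calls said to be lost without an array or an experiment were lost in that fit, with fewer arrays. Among all genes with a mean of 8 or more, 43.7% passed in p300 siRNA cells and 38.6% in NS cells, beside 37% of the bright channel genes in either. The bright channel genes thus passed at about the rate of other genes of their brightness. With the experiment as a block, 14 bright genes passed in p300 siRNA cells and 16 in NS cells, where the rates among bright genes were 64.2% and 61.5%.

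The same bright genes passed in both siRNA groups in most cases. Of the 10 called in each group, 9 were shared and had the same direction, which is 90.0% of either list. Among all 83 members, bright and dim, the shared calls were 81.0% of the list in p300 siRNA cells and 89.5% of that in NS cells. Over all genes, likewise bright and dim, they were 74.8% and 85.4%. Kcnj5, Kcne4, Kcnk3 and Kcng2 fell at least 2-fold in p300 siRNA cells, and Kcnj5, Kcne4 and Kcnk3 did in NS cells, whereas no member rose 2-fold in either. Across all genes, bright and dim, 1.61% fell and 0.386% rose by 2-fold or more in p300 siRNA cells, and 1.36% fell and 0.393% rose in NS cells. Of all 83 members, 5 (6.02%) fell that far in p300 siRNA cells and 4 (4.82%) in NS cells. The median change of the bright channel genes was -0.0088 log2 units in p300 siRNA cells and -0.031 in NS cells, close to the medians of all bright genes, -0.0050 and 0.0045.

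**Figure D1:**
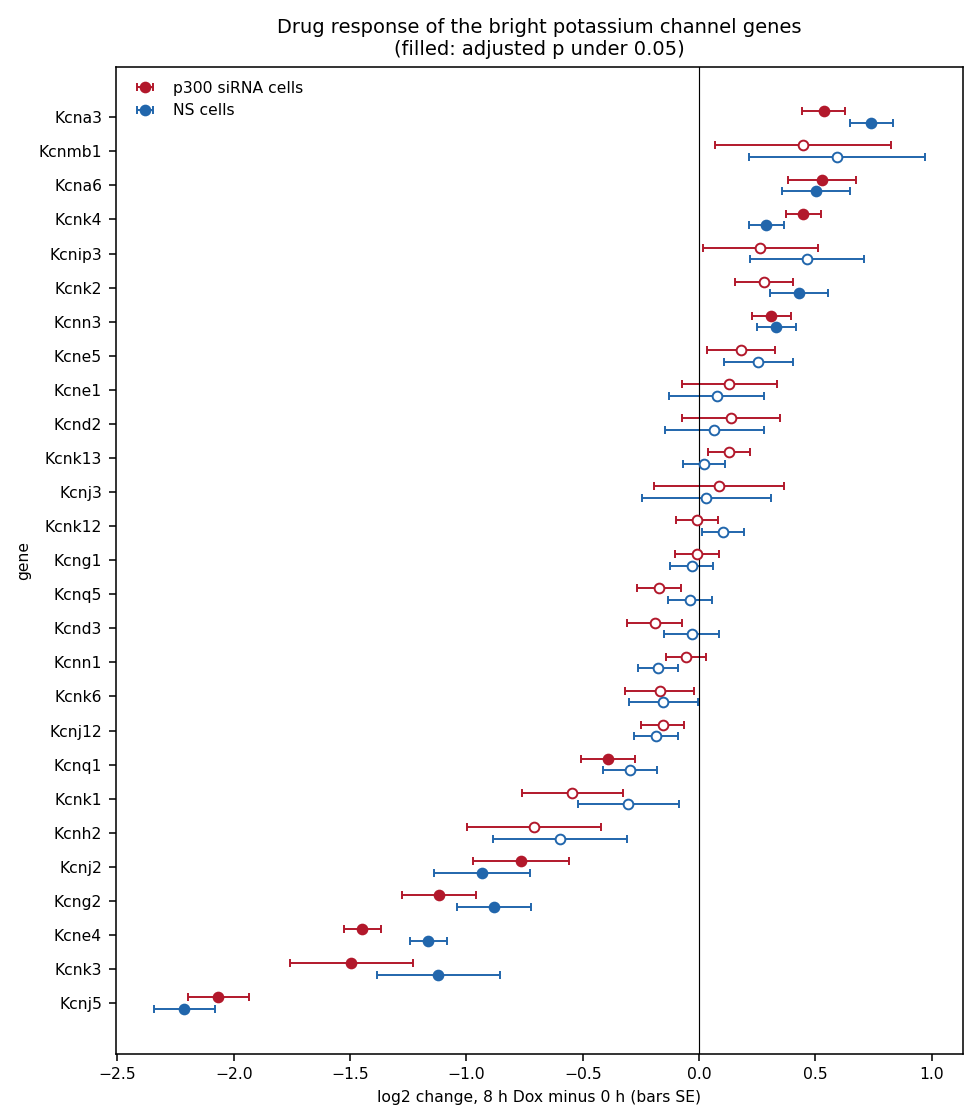
Log2 change of each bright potassium channel gene after 8 h of Dox against 0 h, with bars of 1 SE, for p300 siRNA cells (red) and NS cells (blue), 3 arrays a group; filled points passed the test. Kcnj5 lies lowest in both, at -2.07 and -2.21, and Kcna3 highest, at 0.54 and 0.74.

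Sequences just before the annotated starts of 4 of these genes are shown because they belong to the bright genes that moved together, Kcnj5, Kcne4 and Kcnj2 among those that fell and Kcna3 among those that rose. Each is the 250 bases before the start in RefSeq's annotation of the rat build GRCr8, on the gene's own strand. Capitals mark matches, on either strand, to short motifs of general or cardiac transcription factors. The GC box, bound by SP factors, was searched as GGGCGG. The site of the cardiac homeobox factor NKX2-5 was searched as AAGTG, and the E-box as CACGTG. The core of the GATA site was searched as AGATAA, and the TATA box of the core promoter as TATAAA. The cAMP response element (CRE) was searched as TGACGTCA, and the MEF2 motif is given by its name. No 2 of these motifs share a site in the windows shown. The windows lie at chr8:39011097-39011346 on the minus strand for Kcnj5, and on the plus strand at chr9:87695798-87696047 for Kcne4, chr10:96559975-96560224 for Kcnj2 and chr2:197320074-197320323 for Kcna3.
Kcnj5: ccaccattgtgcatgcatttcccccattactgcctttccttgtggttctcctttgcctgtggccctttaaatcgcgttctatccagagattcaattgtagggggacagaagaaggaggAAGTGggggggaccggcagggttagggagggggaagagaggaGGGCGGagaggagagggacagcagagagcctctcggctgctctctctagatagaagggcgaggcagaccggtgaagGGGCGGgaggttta
Kcne4: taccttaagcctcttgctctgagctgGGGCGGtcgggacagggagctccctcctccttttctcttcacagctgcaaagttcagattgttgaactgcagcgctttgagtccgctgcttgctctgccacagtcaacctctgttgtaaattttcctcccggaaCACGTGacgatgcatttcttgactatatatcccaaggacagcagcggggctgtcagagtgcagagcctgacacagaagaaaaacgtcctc
Kcnj2: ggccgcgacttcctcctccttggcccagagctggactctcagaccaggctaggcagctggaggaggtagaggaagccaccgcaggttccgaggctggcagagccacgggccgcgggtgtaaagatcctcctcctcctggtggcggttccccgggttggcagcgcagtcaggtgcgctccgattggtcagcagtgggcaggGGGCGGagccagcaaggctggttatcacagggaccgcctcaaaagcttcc
Kcna3: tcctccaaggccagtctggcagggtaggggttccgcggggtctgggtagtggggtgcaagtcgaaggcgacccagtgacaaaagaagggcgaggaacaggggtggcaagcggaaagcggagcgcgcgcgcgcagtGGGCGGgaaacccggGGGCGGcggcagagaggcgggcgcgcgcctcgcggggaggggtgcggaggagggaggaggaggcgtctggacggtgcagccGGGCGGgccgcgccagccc

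The 4 windows hold 2, 1, 1 and 3 GC boxes in the order shown, with a match to the NKX2-5 motif in that of Kcnj5 and an E-box in that of Kcne4. A promoter window was found for 58 of the 83 members. Of 9 members that passed as lower in both siRNA groups 6 had one, and of 8 that passed as higher 7 did; Kcnj11, Kcnk3, Kcnd1 and Kcna1 had none in the table used. A GC box stood in 5 of the 6 windows of lower genes and in 3 of the 7 of higher genes, against 48.3% of member windows and 47.3% of 11951 windows of measured genes. AAGTG stood in 2 of the 6 and 5 of the 7, against 39.7% and 39.9%. None of the 13 windows held the GATA, MEF2, TATA or CRE letters. GATA letters stood in 8.59% of all windows, MEF2 in 3.07%, TATA in 11.2% and CRE in 2.28%. Such matches describe letters in the window and show no binding.

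Kcnj5 encodes a pore subunit of the acetylcholine-gated inward rectifier, the channel by which the vagus slows the atrium. It had log2 intensities of 8.26, 8.48 and 8.52 in p300 siRNA cells after 8 h of Dox, against 10.32, 10.58 and 10.56 in p300 siRNA cells at 0 h. NS cells showed 8.32, 8.54 and 8.60 after 8 h, against 10.42, 10.82 and 10.84 at 0 h. Treated and untreated arrays were far apart and did not overlap in either group. The level after Dox was 23.9% of the 0 h level in p300 siRNA cells (log2 change -2.07 ± 0.13 SE, limma adjusted p = 4.8e-07) and 21.6% in NS cells (-2.21 ± 0.13, adjusted p = 4.86e-07). Kcnj3 encodes the partner pore subunit of the same channel. Its level was 9.49 ± 0.52 in p300 siRNA cells after 8 h and 9.41 ± 0.35 at 0 h, and 9.56 ± 0.27 in NS cells after 8 h and 9.52 ± 0.47 at 0 h (SD, n = 3 each), with overlapping arrays and no call in either comparison.

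Kcne4 encodes a single-pass auxiliary subunit that inhibits several voltage-gated channels when expressed with them. It had 7.93, 7.78 and 7.81 in p300 siRNA cells after 8 h of Dox, against 9.23, 9.22 and 9.41 in p300 siRNA cells at 0 h. Its values in NS cells were 7.92, 7.84 and 7.79 after 8 h, against 9.02, 8.96 and 9.06 at 0 h. The treated arrays of both siRNA groups lay in the same range, and the untreated arrays with p300 siRNA were all above the untreated NS arrays. After Dox the level was 36.7% of the 0 h level in p300 siRNA cells (-1.45 ± 0.079 SE, limma adjusted p = 2.21e-07) and 44.6% in NS cells (-1.16 ± 0.079, adjusted p = 1.18e-06).

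Kcnk3 encodes an acid-sensitive leak channel. It had 7.94, 8.74 and 8.03 in p300 siRNA cells after 8 h of Dox, against 9.07, 9.98 and 10.14 in p300 siRNA cells at 0 h. The NS cells had 8.15, 8.45 and 8.65 after 8 h, against 9.34, 9.71 and 9.56 at 0 h. All untreated arrays were above all treated ones, and experiment 1 was lowest in each group. The change was -1.50 ± 0.27 in p300 siRNA cells (SE, limma adjusted p = 0.000964), or -1.19 without experiment 3, in which the drop was largest. In NS cells it was -1.12 ± 0.27 (adjusted p = 0.00722), and that call was lost without experiment 2 (adjusted p = 0.0766).

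Kcng2 encodes a silent voltage-gated subunit, which forms no channel of its own and modifies others. It had 10, 10.25 and 10.17 in p300 siRNA cells after 8 h of Dox, against 10.98, 11.18 and 11.61 in p300 siRNA cells at 0 h. In NS cells it had 10.30, 10.19 and 10.53 after 8 h, against 11.11, 11.08 and 11.49 at 0 h. It was the second brightest member and was lower after Dox in each experiment. The changes were -1.12 ± 0.16 in p300 siRNA cells (SE, limma adjusted p = 0.0002) and -0.88 ± 0.16 in NS cells (adjusted p = 0.00126).

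Kcnj2 encodes the main pore subunit of the inward rectifier current of the ventricle. It had 7.70, 7.76 and 7.59 in p300 siRNA cells after 8 h of Dox, against 8.08, 8.45 and 8.81 in p300 siRNA cells at 0 h. Its values in NS cells were 7.97, 7.50 and 7.68 after 8 h, against 8.47, 8.34 and 9.13 at 0 h. The groups did not overlap, and the untreated arrays spread more widely than the treated ones. The changes were -0.77 ± 0.21 in p300 siRNA cells (SE, limma adjusted p = 0.0136) and -0.93 ± 0.21 in NS cells (adjusted p = 0.00513). The call in p300 siRNA cells was lost without experiment 2, without experiment 3 or without the untreated array of experiment 3, and the call in NS cells without experiment 2 (adjusted p = 0.0608). Of the other genes listed for that current, Kcnj12, which was bright at 9.28 ± 0.041 in p300 siRNA cells after 8 h, 9.44 ± 0.077 at 0 h, 9.31 ± 0.17 in NS cells after 8 h and 9.50 ± 0.072 at 0 h (SD, n = 3 each), did not pass.

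Kcnq1, the pore of the slow delayed rectifier, was the brightest member. It had 10.59, 10.78 and 10.81 in p300 siRNA cells after 8 h of Dox, against 10.94, 11.06 and 11.35 in p300 siRNA cells at 0 h. The NS cells had 11.05, 10.86 and 11.17 after 8 h, against 11.28, 11.25 and 11.44 at 0 h. Treated arrays were below untreated ones in both siRNA groups with no overlap. The change passed in p300 siRNA cells (-0.39 ± 0.11 SE, limma adjusted p = 0.0205), but not without experiment 2, without experiment 3 or without either of 2 single arrays. In NS cells it was -0.30 ± 0.11 (adjusted p = 0.0739, or 0.00337 in the blocked fit). Its auxiliary subunit gene Kcne1 did not pass, with 8.85 ± 0.14 in p300 siRNA cells after 8 h, 8.72 ± 0.23 at 0 h, 9.27 ± 0.28 in NS cells after 8 h and 9.19 ± 0.45 at 0 h (SD, n = 3 each).

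Kcna3, a voltage-gated channel best known from lymphocytes, rose the most among the bright members. All its untreated arrays lay under 8, so its place in the bright class rests on the treated arrays. The dim member Kcnj15 rose by as much in NS cells, at 0.75. Kcna3 had 8.27, 8.18 and 8.14 in p300 siRNA cells after 8 h of Dox, against 7.62, 7.70 and 7.66 in p300 siRNA cells at 0 h. NS cells showed 8.66, 8.30 and 8.48 after 8 h, against 7.85, 7.73 and 7.64 at 0 h. The groups did not overlap. The changes were 0.54 ± 0.093 in p300 siRNA cells (SE, limma adjusted p = 0.000811) and 0.74 ± 0.093 in NS cells (adjusted p = 9.18e-05).

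Kcna6, another voltage-gated pore of that family, had 8.69, 8.58 and 8.34 in p300 siRNA cells after 8 h of Dox, against 8.33, 7.80 and 7.89 in p300 siRNA cells at 0 h. In NS cells it had 8.73, 8.70 and 8.47 after 8 h, against 8.30, 8.13 and 7.95 at 0 h. Experiment 1 was highest in every group, and treated arrays were above untreated ones throughout. The changes were 0.53 ± 0.14 in p300 siRNA cells (SE, limma adjusted p = 0.0141) and 0.50 ± 0.14 in NS cells (adjusted p = 0.0209). The calls were lost without experiment 2 in both siRNA groups and without experiment 3 in NS cells, and also without either of 2 single arrays in p300 siRNA cells and of 4 in NS cells.

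Kcnk4 and Kcnk2 encode leak channels that open on membrane stretch. Kcnk4 had 8.80, 8.65 and 8.69 in p300 siRNA cells after 8 h of Dox against 8.29, 8.27 and 8.24 in p300 siRNA cells at 0 h, and 8.70, 8.59 and 8.54 in NS cells after 8 h against 8.25, 8.33 and 8.39 at 0 h. It rose by 0.45 ± 0.076 in p300 siRNA cells (SE, limma adjusted p = 0.000694) and by 0.29 ± 0.076 in NS cells (adjusted p = 0.0132), a call lost without any of the 3 experiments or without the untreated array of experiment 1. Kcnk2 showed the other order of sizes. It had 8.93, 9.05 and 8.88 in p300 siRNA cells after 8 h against 8.59, 8.67 and 8.76 in p300 siRNA cells at 0 h, and 8.96, 9.41 and 9.38 in NS cells after 8 h against 8.64, 8.91 and 8.91 at 0 h. Kcnk2 rose by 0.43 ± 0.12 in NS cells (limma adjusted p = 0.0198, lost without experiment 2, experiment 3 or any of 3 single arrays), and the change in p300 siRNA cells was 0.28 ± 0.12 (adjusted p = 0.103, or 0.0158 in the blocked fit).

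Kcnn3, a small-conductance calcium-activated channel, had 8.69, 8.58 and 8.64 in p300 siRNA cells after 8 h of Dox against 8.26, 8.30 and 8.41 in p300 siRNA cells at 0 h, and 8.85, 8.76 and 8.79 in NS cells after 8 h against 8.53, 8.31 and 8.56 at 0 h. The treated arrays were above the untreated ones in both groups. It rose by 0.31 ± 0.083 in p300 siRNA cells (SE, limma adjusted p = 0.0124) and by 0.33 ± 0.083 in NS cells (adjusted p = 0.00989). The first call was lost without any of the 3 experiments and the second without experiment 2 or 3. Kcnn1, of the same family, did not pass and lay between 8.49 and 8.88 on all arrays.

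**Figure D2:**
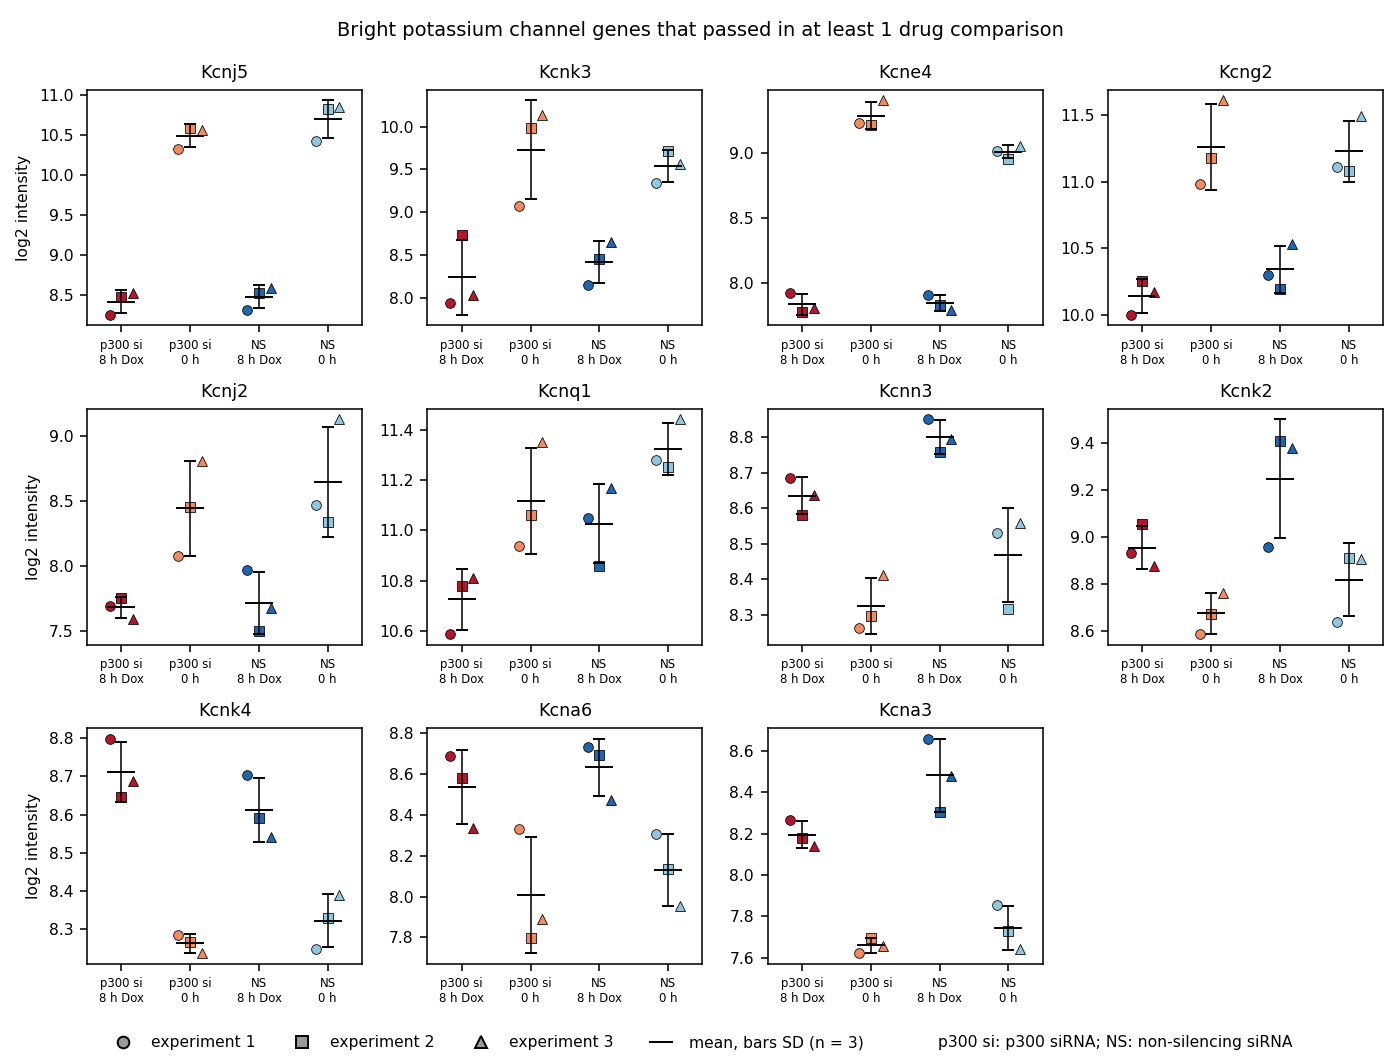
Log2 intensity on each array of the bright potassium channel genes that passed in a Dox comparison, by group, with the mean and SD of 3 arrays; symbols mark the experiments, and the vertical scales differ between genes. Treated and untreated arrays are separate for Kcnj5 and Kcne4 in both siRNA groups.

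Other bright genes differed between experiments and passed only in the blocked fit. Kcnmb1, the auxiliary subunit of the large-conductance calcium-activated channel of smooth muscle, had 11.20, 10.38 and 10.26 in p300 siRNA cells after 8 h against 10.82, 10.01 and 9.66 in p300 siRNA cells at 0 h, and 11.18, 10.54 and 10.09 in NS cells after 8 h against 10.71, 9.82 and 9.49 at 0 h. Experiment 1 was highest in every group, the groups overlapped, and the treated array was above the untreated one in each experiment. The changes were 0.45 ± 0.38 (SE, limma adjusted p = 0.398) in p300 siRNA cells and 0.59 ± 0.38 (adjusted p = 0.275) in NS cells, against adjusted p values of 0.000105 and 1.03e-05 with the block. The 8 smooth muscle and pericyte markers were all bright, and their summed level was 15.52 to 15.88 in p300 siRNA cells after 8 h and 15.68 to 15.92 at 0 h, and 15.59 to 15.83 in NS cells after 8 h and 15.59 to 15.88 at 0 h. The brightest, Acta2 at a mean of 14.19, weighs most in that sum, and single markers did not all move alike. With the block Myh11 changed by 0.29 in p300 siRNA cells (limma adjusted p = 0.0159) and 0.28 in NS cells (adjusted p = 0.0215), and Rgs5 by 0.65 (adjusted p = 4.44e-06) and 0.43 (adjusted p = 0.000224), while Cspg4 and Pdgfrb fell with and without it. Acta2 fell with the block in p300 siRNA cells alone (-0.11, limma adjusted p = 0.00696). The part of smooth muscle cells and pericytes in the level of Kcnmb1 was not tested.

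Kcnh2, the pore of the rapid delayed rectifier, had 8.70, 9.70 and 9.73 in p300 siRNA cells after 8 h of Dox against 9.72, 10.16 and 10.38 in p300 siRNA cells at 0 h, and 9.15, 9.43 and 9.96 in NS cells after 8 h against 9.88, 9.94 and 10.51 at 0 h. The treated array was below the untreated one in each of the 3 experiments of both siRNA groups, but the treated array of experiment 3 lay above the untreated array of experiment 1. The changes were -0.71 ± 0.29 (SE, limma adjusted p = 0.0808) in p300 siRNA cells and -0.60 ± 0.29 (adjusted p = 0.147) in NS cells, and with the block adjusted p was 0.000256 and 0.00117. Kcnk1, a weakly conducting leak channel, changed by -0.55 ± 0.22 (SE, limma adjusted p = 0.0735, with the block 0.000672) in p300 siRNA cells and by -0.30 ± 0.22 (adjusted p = 0.331, with the block 0.0331) in NS cells. Kcnip3, a calcium-binding subunit of channels of the Kcnd family, and Kcne5, a single-pass auxiliary subunit, passed with the block in NS cells alone, at 0.46 (limma adjusted p = 0.00341) and 0.26 (adjusted p = 0.0296), against 0.26 and 0.18 in p300 siRNA cells.

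Bright members differed more between experiments than dim ones. This spread was not computed over all genes, so nothing particular to potassium channel genes is read from it. The range of the 3 experiment means had a median of 0.29 log2 units over the bright members and 0.096 over the dim members, and 7 bright members and 1 dim member ranged by over 0.5. The widest were Kcnip2 with 1.24, Kcnmb1 with 1.1, Kcnh2 with 0.78 and Kcnj3 with 0.75. Kcnip2, a calcium-binding subunit of the transient outward channel, had 7.30, 8.20 and 8.17 in p300 siRNA cells after 8 h of Dox against 7.0, 7.53 and 8.35 in p300 siRNA cells at 0 h, and 8.13, 7.79 and 9.60 in NS cells after 8 h against 7.52, 7.41 and 8.78 at 0 h. Its change of 0.61 ± 0.49 (SE, limma adjusted p = 0.397) in NS cells passed with the block (adjusted p = 0.0407), and that of 0.26 ± 0.49 in p300 siRNA cells passed neither way. A dimmer probe set of Kcnip2, at a mean of 7.15 and not used here, had the other order of sizes. It changed by 0.216 in NS cells and by 0.335 in p300 siRNA cells.

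Among the dim genes, Kcnj11, Kcna4, Kcnj8 and Kcnd1 fell and Kcnj4, Kcng3, Kcna1 and Kcnj15 rose after Dox in both siRNA groups. In p300 siRNA cells 11 of 56 dim genes passed, 7 higher and 4 lower, and in NS cells 9 of 56, 5 higher and 4 lower. The rates among all dim genes were 8.79% higher and 5.35% lower in p300 siRNA cells, and 6.53% higher and 5.35% lower in NS cells. Over all genes with a mean under 8, 14.1% passed in p300 siRNA cells and 11.9% in NS cells, beside 19.6% and 16.1% of the dim channel genes. After a further quantile normalisation the split in NS cells was 3 higher and 4 lower. Kcnh7, Kcns3 and Kcnmb4 passed as higher in p300 siRNA cells and not in NS cells, where Kcnmb4 passed in the blocked fit (0.30, limma adjusted p = 0.0710 without the block and 0.00607 with it). Kcnj9 passed as higher in NS cells and not in p300 siRNA cells. For none of the 4 did the difference of the responses pass. With the block, 16 dim genes passed in p300 siRNA cells and 15 in NS cells, where the rates among dim genes were 19.9% and 18.2%. The 8 genes shared by both lists without the block were 72.7% of the list in p300 siRNA cells and 88.9% of that in NS cells. The shares over all genes, bright and dim, were 74.8% and 85.4%.

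Kcnj11, the pore of the ATP-sensitive channel of ventricle and pancreas, was dim over all arrays. It had 7.36, 7.12 and 7.39 in p300 siRNA cells after 8 h, against 8.12, 8.66 and 9.04 in p300 siRNA cells at 0 h. The NS cells had 7.41, 7.24 and 7.37 after 8 h, against 8.40, 8.57 and 9.11 at 0 h. All 6 untreated arrays were above 8 and all 6 treated arrays below 7.5. The level after Dox was 40.2% of that at 0 h in p300 siRNA cells (-1.32 ± 0.21 SE, limma adjusted p = 0.000455) and 39.2% in NS cells (-1.35 ± 0.21, adjusted p = 0.000452). It was the only dim member to fall 2-fold, and it did so in both siRNA groups.

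Kcnj8, the pore of the ATP-sensitive channel of vascular muscle, had 7.67, 7.66 and 7.78 in p300 siRNA cells after 8 h of Dox, against 8.11, 8.36 and 8.20 in p300 siRNA cells at 0 h. NS cells showed 7.64, 7.66 and 7.88 after 8 h, against 8.23, 8.23 and 8.28 at 0 h. The groups did not overlap. The change was -0.52 ± 0.087 in both p300 siRNA cells (SE, limma adjusted p = 0.000645) and NS cells (adjusted p = 0.00079).

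Kcna4 and Kcnd1 encode rapidly inactivating voltage-gated pores. Kcna4 had 6.90, 6.42 and 6.54 in p300 siRNA cells after 8 h of Dox against 7.31, 7.18 and 7.21 in p300 siRNA cells at 0 h, and 6.92, 6.54 and 6.63 in NS cells after 8 h against 7.46, 7.19 and 7.40 at 0 h. It fell by 0.61 ± 0.13 in p300 siRNA cells (SE, limma adjusted p = 0.00274) and by 0.66 ± 0.13 in NS cells (adjusted p = 0.00203), and both calls were lost without experiment 3. Kcnd1 fell by 0.60 ± 0.10 in p300 siRNA cells (limma adjusted p = 0.000747) and by 0.51 ± 0.10 in NS cells (adjusted p = 0.00265), where it did not pass without experiment 2. The bright members of the Kcnd family, which carry the fast transient outward current of rat ventricle, did not pass. Kcnd2 had 9.11 ± 0.30 in p300 siRNA cells after 8 h, 8.97 ± 0.2 at 0 h, 9.03 ± 0.355 in NS cells after 8 h and 8.96 ± 0.357 at 0 h. Kcnd3 had 9.225 ± 0.15 in p300 siRNA cells after 8 h, 9.42 ± 0.18 at 0 h, 9.35 ± 0.19 in NS cells after 8 h and 9.38 ± 0.041 at 0 h (SD, n = 3 each).

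Kcna1, a voltage-gated pore best known from axons, had 8.00, 7.99 and 8.10 in p300 siRNA cells after 8 h of Dox, against 7.48, 7.63 and 7.42 in p300 siRNA cells at 0 h. Its values in NS cells were 7.79, 7.87 and 7.62 after 8 h, against 7.14, 7.33 and 7.24 at 0 h. The groups were apart, and within each time the p300 siRNA arrays were above the NS arrays. It rose by 0.52 ± 0.087 in both p300 siRNA cells (SE, limma adjusted p = 0.000657) and NS cells (adjusted p = 0.000738).

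Kcnj15, an inward rectifier best known from kidney, rose by 0.51 ± 0.14 in p300 siRNA cells (SE, limma adjusted p = 0.0122, lost without experiment 3 or its untreated array) and by 0.75 ± 0.14 in NS cells (adjusted p = 0.00149). Kcng3, a silent voltage-gated subunit, rose by 0.48 ± 0.11 in p300 siRNA cells (limma adjusted p = 0.00521) and by 0.39 ± 0.11 in NS cells (adjusted p = 0.0193), and Kcnj4, an inward rectifier of brain and heart, by 0.26 ± 0.063 in p300 siRNA cells (limma adjusted p = 0.00746) and 0.205 ± 0.063 in NS cells (adjusted p = 0.0296). With p300 siRNA Kcns3, another silent subunit, rose by 0.34, Kcnmb4, an auxiliary subunit of the large-conductance channel in brain, by 0.36, and Kcnh7, a relative of Kcnh2, by 0.26. In NS cells Kcnj9, a subunit of neuronal acetylcholine-gated channels, rose by 0.32. Each of these 6 genes lost its call in at least 1 siRNA group without experiment 1, 2 or 3. The other 44 dim members did not pass in either comparison without the block, and 8 of them did with it. In both groups these were Kcnab1 (-0.22 in p300 siRNA cells, limma adjusted p = 0.0768 and in the blocked fit 0.0203, and -0.23 in NS cells, 0.0681 and 0.0156) and Kcnh1 (-0.34, 0.202 and 0.0226, and -0.37, 0.185 and 0.0167). In p300 siRNA cells they were Kcnip4 (0.26), Kcnj14 (0.21) and Kcnj13 (-0.26), with limma adjusted p of 0.0174, 0.0439 and 0.0336 in the blocked fit. In NS cells they were Kcnip2, whose values are given above, Kcnv1 (0.21) and Kcnj10 (-0.24), the last 2 with limma adjusted p of 0.0487 and 0.0193 in the blocked fit.

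**Figure D3:**
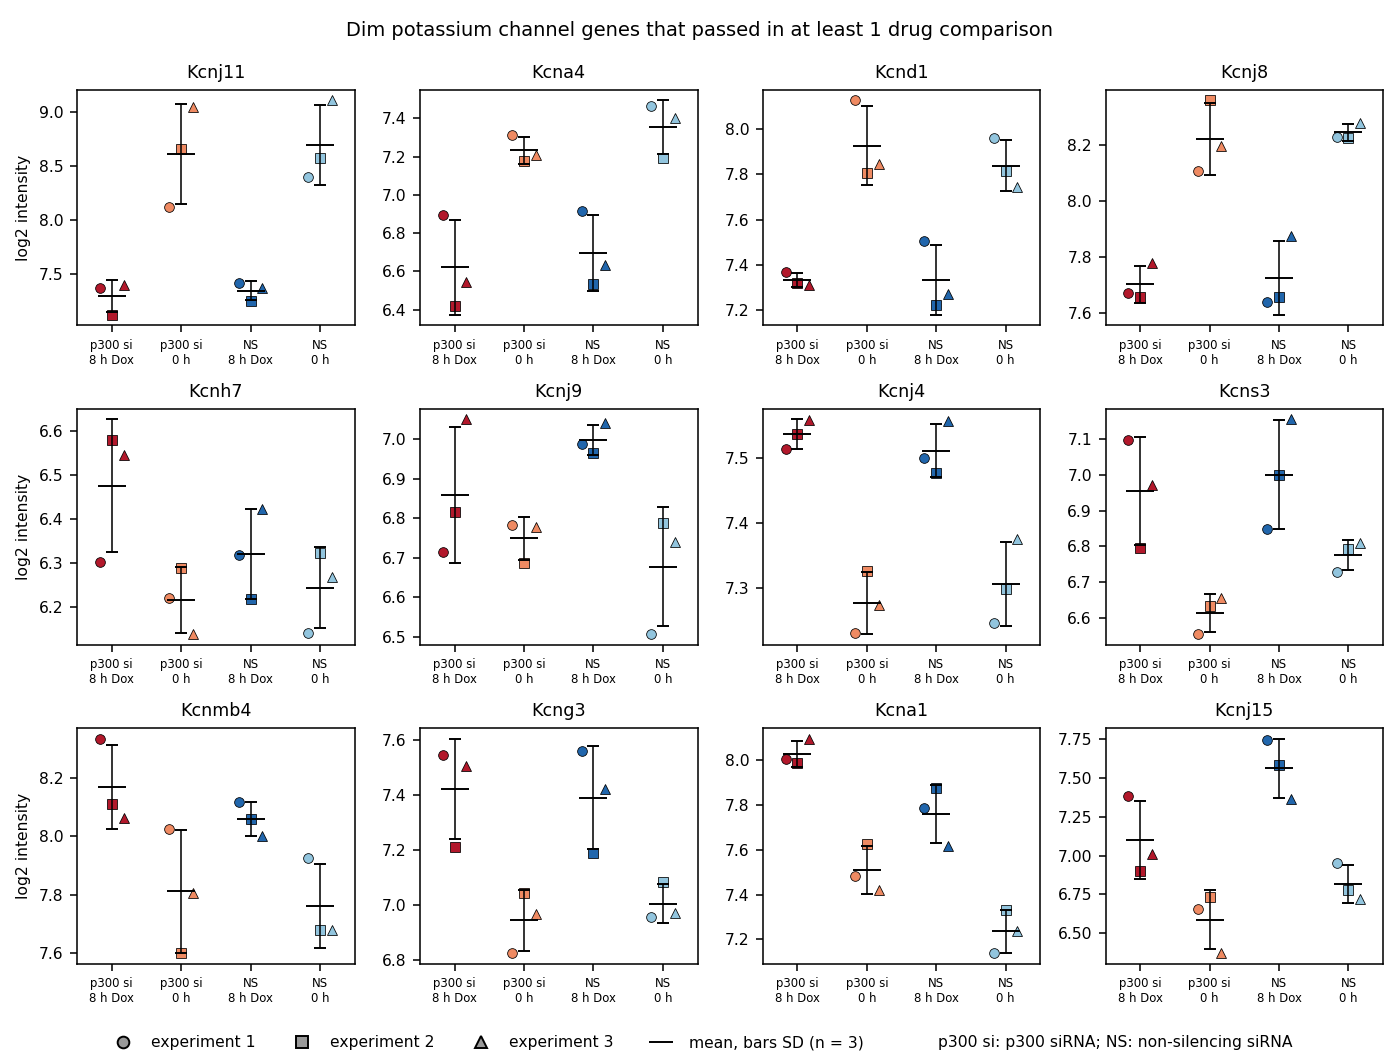
Log2 intensity on each array of the 12 dim potassium channel genes that passed in at least 1 Dox comparison, by group, with the mean and SD of 3 arrays; symbols mark the experiments, and the vertical scales differ between genes. Kcnj11 lies above 8 on the untreated arrays and below 7.5 on the treated ones.

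By role, 4 of 15 measured inward rectifiers fell in both siRNA groups, and 2 rose in p300 siRNA cells and 3 in NS cells. With the block 3 of them rose and 5 fell in each group. Of 14 voltage-gated pores of the Kcna to Kcnd families, 3 rose and 2 fell in each group. Of 12 auxiliary subunits of voltage-gated channels, 1 fell in each group, which was Kcne4; with the block 1 rose and 2 fell in p300 siRNA cells, and 3 rose and 2 fell in NS cells. Of 11 leak channels, 1 rose and 1 fell in p300 siRNA cells, and 2 rose and 1 fell in NS cells, whereas with the block 2 rose and 2 fell in each. Of 10 calcium- or sodium-activated channels and their subunits, 2 rose in p300 siRNA cells and 1 in NS cells, or 3 in each with the block, and none fell. Of 10 silent subunits, 2 rose and 1 fell in p300 siRNA cells, and 1 rose and 1 fell in NS cells, or 2 and 1 with the block. Of 8 pores of the Kcnh family, 1 rose in p300 siRNA cells and none passed in NS cells, and with the block 2 fell as well in each group. Of 3 Kcnq pores, 1 fell in p300 siRNA cells and none passed in NS cells, where 1 fell with the block. The counts without the block, of 0 to 4, stand beside rates over all genes of 13.9% higher and 17.5% lower in p300 siRNA cells, and 11.2% higher and 16.4% lower in NS cells. Nothing particular to a role is read from the counts with or without the block.

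Subunits of the same channel did not all move alike. Both pore genes of the ATP-sensitive channel fell, while Abcc9, the sulfonylurea receptor subunit of the vascular and ventricular forms, rose by 0.64 ± 0.15 in p300 siRNA cells (SE, limma adjusted p = 0.00612) and by 0.53 ± 0.15 in NS cells (adjusted p = 0.0192). Leaving out experiment 2 ended the call of Abcc9 in both, and experiment 1 or either of 2 single arrays that in NS cells. Abcc8, the other receptor subunit, changed by 0.40 ± 0.36 and 0.45 ± 0.36 (limma adjusted p = 0.434 and 0.392 in p300 siRNA and NS cells, and 0.00916 and 0.00452 with the block). Chrm2, the muscarinic receptor that opens the acetylcholine-gated channel, fell by 1.14 ± 0.20 in p300 siRNA cells (limma adjusted p = 0.00103) and by 1.04 ± 0.20 in NS cells (adjusted p = 0.00224), as did Kcnj5, while Kcnj3 did not pass.

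**Figure D4:**
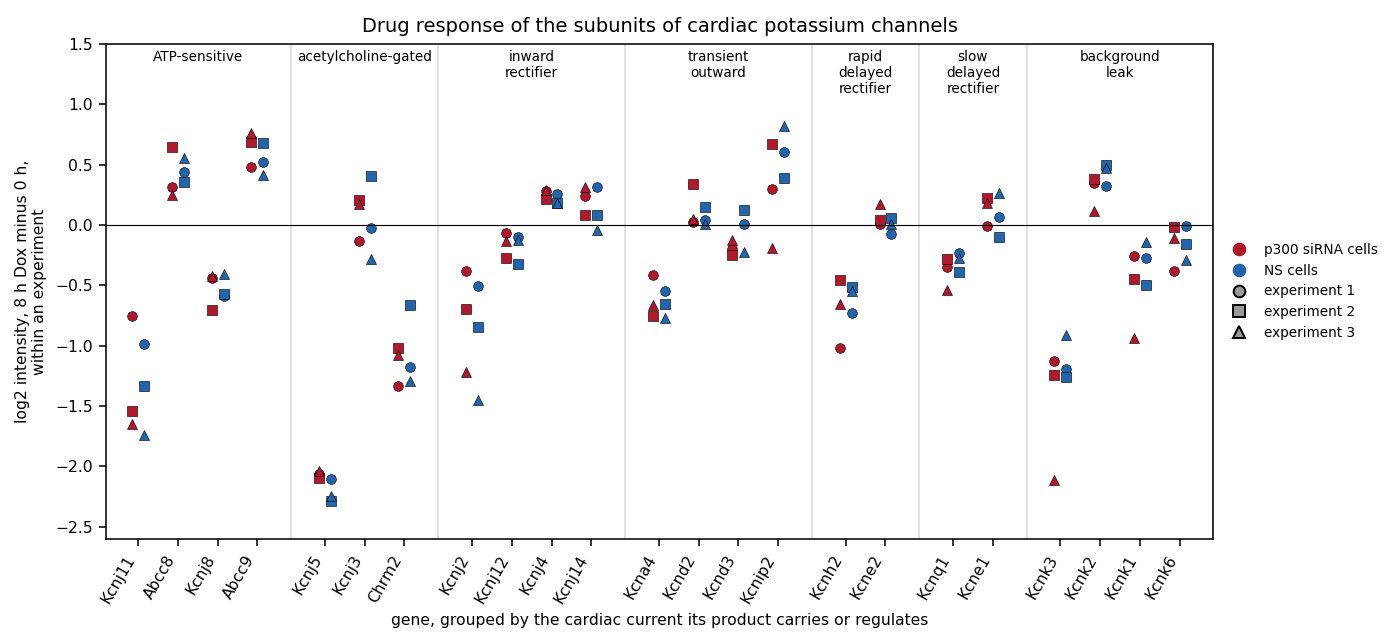
Difference in log2 intensity between 8 h of Dox and 0 h within each experiment, for the subunits of 7 cardiac potassium currents and for the receptors Abcc8, Abcc9 and Chrm2, in p300 siRNA cells (red) and NS cells (blue). Kcnj11 and Kcnj8 lie below 0 and Abcc8 and Abcc9 above 0 in all 3 experiments of both siRNA groups.

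Of 31 measured partners and regulators of potassium channels, 1 rose and 9 fell in p300 siRNA cells, and 2 rose and 9 fell in NS cells. With the block, 3 rose and 11 fell in p300 siRNA cells, and 4 rose and 10 fell in NS cells. Over all genes 31.4% passed in p300 siRNA cells, 13.9% higher and 17.5% lower, and 27.5% passed in NS cells, 11.2% higher and 16.4% lower. The partner list was chosen with earlier results of these data known, so no excess over these rates can be read from it. The 9 that fell were the same in both groups. Amigo1, an auxiliary protein of delayed rectifier channels, fell by 1.21 ± 0.11 in p300 siRNA cells (SE, limma adjusted p = 8.03e-06) and by 1.15 ± 0.11 in NS cells (adjusted p = 1.48e-05). Nedd4l, a ubiquitin ligase that removes channels from the membrane, fell by 0.76 ± 0.088 and 0.80 ± 0.088 in the same order. Akap9, a scaffold of the slow delayed rectifier, fell by 0.87 and 0.78, and Adora1, an adenosine receptor that opens the acetylcholine-gated channel, by 0.49 and 0.40. Irx3 and Irx5, homeobox factors that pattern channel expression across the mouse ventricle, fell by 0.54 and 0.51 in p300 siRNA cells and by 0.63 and 0.57 in NS cells. Klf15, a regulator of Kcnip2 in the mouse, fell by 0.35 and 0.36, and Dlg1, a membrane scaffold of channels, by 0.39 and 0.31. Lrrc26, an auxiliary subunit of the large-conductance channel, rose by 0.24 in NS cells and changed by 0.03 in p300 siRNA cells, a difference of responses of -0.21 ± 0.106 (SE, limma adjusted p = 1). Amigo1, Nedd4l and Chrm2 kept their calls under every alternative in both siRNA groups, as did Irx5 in p300 siRNA cells, and the other calls in this list were lost without at least 1 experiment. In NS cells Adora1 (limma adjusted p = 0.0463) lost its call in 12 of 23 alternatives, among them both other scalings of the arrays. Klf15 (limma adjusted p = 0.041) lost its call there in 11 of 22. A further quantile normalisation also ended the calls of Akap9, Dlg1 and Lrrc26 in NS cells. Passing with the block alone were Abcc8 and the pacemaker channel gene Hcn4 in both groups, Hcn3 and Wnk1 in p300 siRNA cells and Hcn2 in NS cells. Hcn4 changed by -0.57 in p300 siRNA cells (limma adjusted p = 0.0584, in the blocked fit 0.000198) and by -0.44 in NS cells (adjusted p = 0.152, in the blocked fit 0.00197). For Hcn3 the change was 0.19 in p300 siRNA cells (limma adjusted p = 0.0506, in the blocked fit 0.0430), and for Wnk1 -0.13 (adjusted p = 0.100, in the blocked fit 0.0294). Hcn2 changed by 0.28 in NS cells (limma adjusted p = 0.125, in the blocked fit 0.0214).

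Several members are direct neighbours on the rat reference GRCr8, and 11 neighbouring pairs of members or of a member and a partner were measured. In 1 pair, Kcna1 and Kcna6, both genes rose in both siRNA groups. In 1 pair, Kcnj8 and Abcc9, both passed in opposite directions in both. In 6 pairs in p300 siRNA cells and 7 in NS cells only 1 gene of the pair passed. These included Kcnj5 beside Kcnj1, at 5.80, Kcnj2 beside Kcnj16, at 5.81, and Kcnj11 beside Abcc8.

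With p300 siRNA, no potassium channel gene passed at 8 h or at 0 h, and Kcnab3 alone passed in the average over both times. Kcnab3 encodes a cytoplasmic beta subunit of voltage-gated channels. At 8 h 7 of 14507 genes passed (0.0483%) and at 0 h 3 (0.0207%), so few calls of any kind were made. At an unadjusted p under 0.05, 10 members passed at 8 h and 7 at 0 h, beside 7.97% and 6.95% of all genes. Kcnab3 had 6.95, 7.12 and 6.95 in p300 siRNA cells after 8 h and 6.99, 7.03 and 7.11 in p300 siRNA cells at 0 h, against 6.83, 6.83 and 6.70 in NS cells after 8 h and 6.71, 6.79 and 6.83 at 0 h. Every p300 siRNA array was above every NS array. The average change was 0.24 ± 0.051 (SE, limma adjusted p = 0.0393), the direction held in 6 of 6 within-experiment differences, and 1.25% of all genes passed. Those differences come from the arrays that gave the call and are no separate support for it. This dim gene lost its call in 15 of 21 alternatives, among them both other scalings of the arrays and the removal of any of the 3 experiments.

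With the experiment as a block, 9 of 83 members (10.8%) passed for p300 siRNA averaged over both times, beside 9.52% of all genes, 3.23% higher and 6.29% lower. Of the members, 3 were higher with p300 siRNA, which were Kcne5 (0.30 log2 units, limma adjusted p = 0.00759), Kcna1 (0.27, adjusted p = 0.00783) and Kcnab3 (adjusted p = 0.0101). The 6 lower ones were Kcne1 (-0.44, limma adjusted p = 0.00769), Kcnj15 (-0.35, adjusted p = 0.00415), Kcnq1 (-0.25, adjusted p = 0.00565), Kcnq5 (-0.23, adjusted p = 0.0184), Kcnk2 (-0.22, adjusted p = 0.0377) and Kcnv2 (-0.18, adjusted p = 0.0269). Each of the 9 had its direction in 6 of 6 within-experiment differences. The blocked fit that picked these genes tests the same differences, so their direction is no separate support. Without the block the adjusted p of the 8 other than Kcnab3 lay between 0.056 and 0.3. At 8 h alone Kcnj15 (-0.46, limma adjusted p = 0.0185) and Kcnq1 (-0.30, adjusted p = 0.0387) passed with the block, beside 3.15% of all genes, and at 0 h none did, beside 2.69%.

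Kcne1 and Kcnq1, which together make the slow delayed rectifier, were thus both lower with p300 siRNA with the block. Kcne1 had 8.95, 8.91 and 8.69 in p300 siRNA cells after 8 h and 8.96, 8.69 and 8.51 in p300 siRNA cells at 0 h, against 9.15, 9.59 and 9.07 in NS cells after 8 h and 9.09, 9.69 and 8.80 at 0 h. The difference was widest in experiment 2, at -0.84 over both times, against -0.33 in experiment 3 and -0.16 in experiment 1. For Kcnq1 the differences were -0.40, -0.14 and -0.22 in experiments 1, 2 and 3.

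Some markers of other cell types also passed for the p300 siRNA. Averaged over both times 1.25% of all genes passed, and 9.52% with the block. The summed level of 8 macrophage and leukocyte markers, 5 of them bright, was 12.74 to 13.13 in p300 siRNA cells after 8 h and 12.54 to 13.16 at 0 h, against 13.05 to 13.43 in NS cells after 8 h and 13.10 to 13.39 at 0 h. Averaged over both times 3 of the 8 passed as lower, and 6 with the block. The 10 fibroblast markers, all bright, summed to 15.14 to 15.39 and 15.14 to 15.42 in p300 siRNA cells at 8 h and 0 h, against 15.32 to 15.47 and 15.36 to 15.51 in NS cells, and 5 of them passed as lower with the block and none without. Of the 8 smooth muscle and pericyte markers, Cspg4 was lower (-0.37, limma adjusted p = 0.033), and with the block Pdgfrb was lower (adjusted p = 0.0131) and Tagln higher (adjusted p = 0.00632) as well. The endothelial marker Kdr was lower with the block (-0.18, limma adjusted p = 0.0424), and no neuron or glia marker passed either way. The part of these cells in the p300 siRNA differences was not tested.

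**Figure D5:**
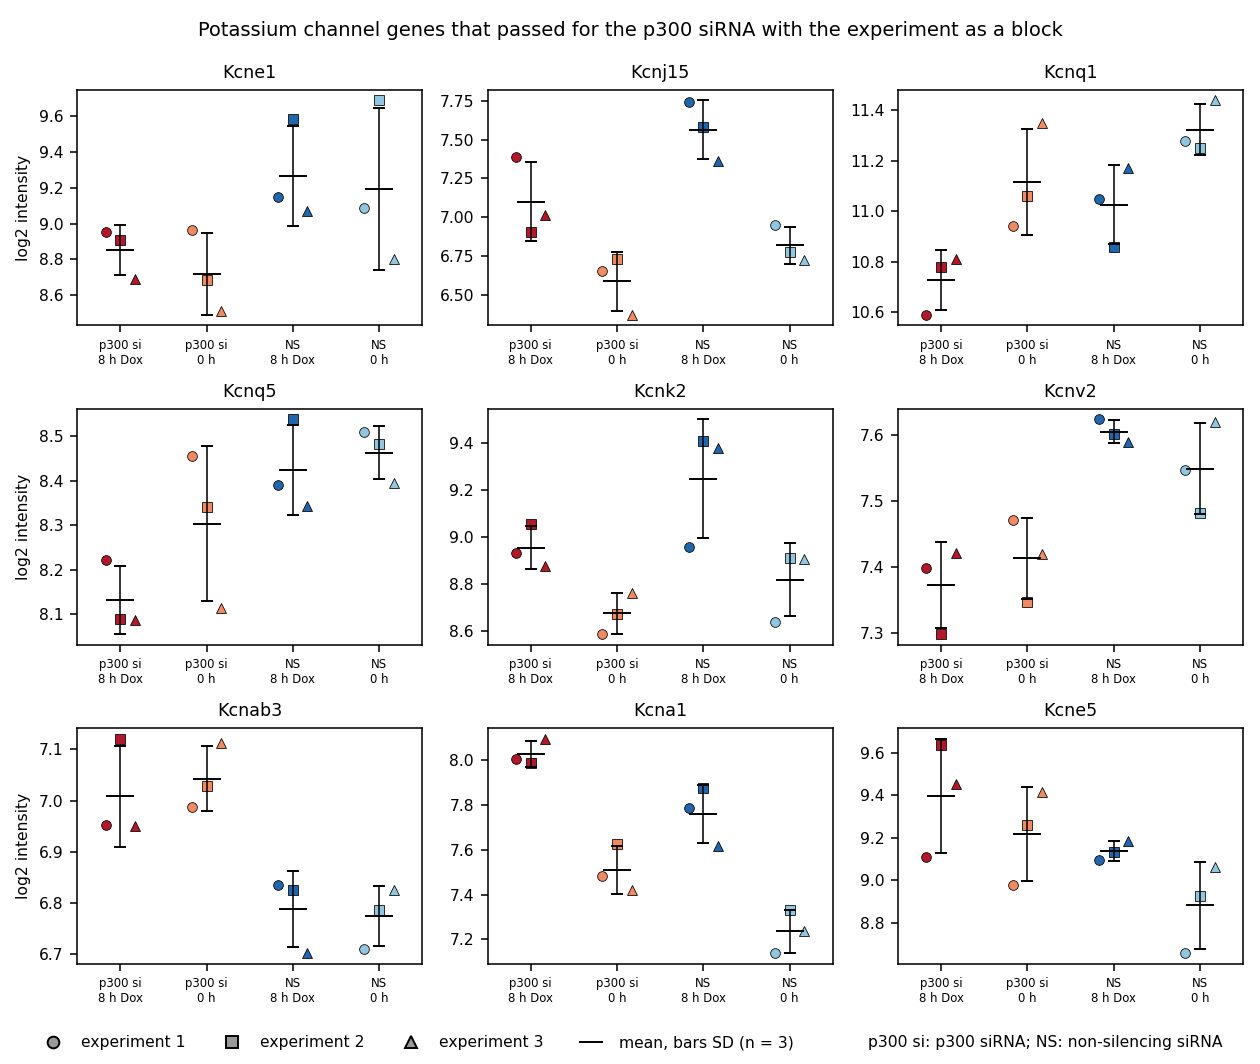
Log2 intensity on each array of the 9 potassium channel genes that passed for p300 siRNA, averaged over both times, with the experiment as a block; means and SD of 3 arrays, symbols for the experiments, and a separate vertical scale for each gene. All 6 p300 siRNA arrays of Kcnab3 lie above all 6 NS arrays.

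Whether p300 siRNA altered the response to Dox was tested as the difference of the drug responses. None of the 83 members passed, nor did any of the 14507 genes (0%), with limma with or without the block, and 2 members had an unadjusted p under 0.05, beside 1.57% of all genes. Kcne4 differed by -0.28 ± 0.11 (SE, limma unadjusted p = 0.0257, adjusted p = 1), a larger drop with p300 siRNA in 3 of 3 experiments, and the dim gene Kcns1 by 0.25 ± 0.12 (unadjusted p = 0.0472, adjusted p = 1). The differences of the 83 members ranged from -0.37 to 0.25, with a median SE of 0.13. Kcnq1 and Kcnk2, each called in 1 siRNA group only, differed by -0.09 ± 0.16 and -0.15 ± 0.17.

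Some markers of other cell types also passed with Dox. Over all genes 31.4% passed in p300 siRNA cells and 27.5% in NS cells, and among bright genes 43.7% and 38.6%. With the block 64.2% and 61.5% of bright genes passed in the same order, and 19.9% and 18.2% of dim genes. Nothing particular to a cell type is read from the counts of markers. Of 7 measured endothelial markers, 2 of them bright, 2 fell in each siRNA group, or 3 in p300 siRNA cells and 4 in NS cells with the block, where 1 also rose in NS cells. Their summed level was 10.22 to 10.28 in p300 siRNA cells after 8 h against 10.53 to 10.54 at 0 h, and 10.30 to 10.46 in NS cells after 8 h against 10.64 to 10.71 at 0 h. Of 8 neuron and glia markers, 2 of them bright, 3 rose in p300 siRNA cells, or 5 with the block, and 2 rose and 1 fell in NS cells. Their summed level was 10.86 to 10.94 in p300 siRNA cells after 8 h against 10.57 to 10.62 at 0 h, and 10.90 to 10.98 in NS cells after 8 h against 10.72 to 10.81 at 0 h. Of 8 smooth muscle and pericyte markers, 2 fell in each siRNA group, the pericyte markers Cspg4, by 1.12 and 1.09 in p300 siRNA and NS cells, and Pdgfrb, by 0.93 and 0.85. With the block Myh11 and Rgs5 also rose in both groups, and Acta2 fell in p300 siRNA cells. Of 10 fibroblast markers, Pdgfra fell, by 0.88 in p300 siRNA cells and 0.79 in NS cells, and Thy1 rose, by 0.51 and 0.49; with the block 3 rose and 2 fell in p300 siRNA cells, and 1 rose and 2 fell in NS cells. Of 8 macrophage and leukocyte markers, Csf1r fell in both groups, by 0.66 and 0.54, and in p300 siRNA cells Ptprc also passed as lower (-0.37) and C1qa as higher (0.25). With the block 3 of these 8 rose and 2 fell in p300 siRNA cells, and 2 rose and 1 fell in NS cells. The part of all these cells in the changes of Kcnj8, of Kcna1 and of the other members was not tested.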

How the data were processed

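Total RNA of 12 cultures was hybridised to Affymetrix whole-transcript arrays. The deposited values are intensity on a linear scale, made with Affymetrix Expression Console 1.1 and RMA, per the submitters' processing notes; log2 was taken here, as no source used states how RMA values became linear. RMA normalises arrays to each other, so a shift common to most genes cannot be seen. The number of arrays limits the precision. Array medians were 7.73 to 7.80. Of 29214 probe sets, 15310 had 1 symbol, 323 several and 13581 none; the brightest single-symbol probe set per gene was kept, and 14481 of 14507 genes were matched to current Entrez identifiers (GRCr8).

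The model had 4 group means, estimated in R 4.3.3 by limma 3.58.1 (eBayes with trend after lmFit, 8 residual degrees of freedom, two-sided), with Benjamini-Hochberg adjustment over all genes of a comparison. It recovered changes of 1 log2 unit in data simulated with independent noise on each array. That simulation held no experiment effect and no smaller change, so it does not show how the fit does with these. Replicate numbers name the 3 experiments: the 18 pairs of arrays of 1 number had correlated deviations from their group means (0.172 to 0.689, against a median of -0.271 for other pairs), and each of the 12 arrays lay nearest an array of its own number. Deviations within a group cancel out, so a positive correlation within a number brings a negative one for other pairs, which is no separate support. Values with the experiment as a block are given for Ep300, for p300 siRNA calls of members, and where they change a Dox call of a member or partner. For markers they are given as counts or names, with values for some.

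Members, lists and roles were chosen with earlier results of these data known. Bright members that passed are given by array, unchanged bright members of the cardiac current lists by group means, and dim members that passed by their change. Alternatives were the block, the samples fitted, the genes tested, the scaling, the probe set rule, the prior variance, the threshold for bright genes, and each array or experiment left out. Plots used matplotlib 3.10.9 under Python 3.11.15.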

Additional observations from a re-analysis of the deposited data

How the results depend on the processing

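No called change of a potassium channel gene, partner or Ep300 reversed under any alternative run. Under every alternative, Kcnj5, Kcne4, Kcng2, Kcna3, Kcnj11, Kcnj8 and Kcna1 kept their calls in both siRNA groups, Kcnk3, Kcnk4 and Kcnd1 in p300 siRNA cells and Kcnj15 in NS cells. With the experiment as a block, 16 bright and 15 dim members passed for Dox in NS cells, against 10 and 9 without it; for p300 siRNA 2 passed at 8 h and 9 averaged over both times, against 0 and 1. The block changed no call to a loss among members. With the experiment as a random effect, 15 dim members passed in NS cells, 17 dim members in p300 siRNA cells, and 8 members for p300 siRNA averaged over both times. A threshold of 7 for bright genes gave 18 bright and 3 dim calls in p300 siRNA cells and 17 and 2 in NS cells; a threshold of 9 gave 3 and 18, and 2 and 17. For p300 siRNA averaged over both times, leaving out dim genes, centring arrays on the median and a further quantile normalisation each gave 0. These scalings moved the median change of all genes by at most 0.0232 log2 units in size.

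Leaving out an array or an experiment gave 6 to 11 bright and 4 to 12 dim calls in p300 siRNA cells and 4 to 11 bright and 5 to 10 dim calls in NS cells, where bright calls numbered 4 without experiment 2 and 6 without experiment 3. It gave 0 to 2 for p300 siRNA averaged over both times, and 0 throughout at 0 h, at 8 h and for the difference of the responses. These fits had no block and fewer arrays, and the cause of each lost call was not tested. Dim members have no value where dim genes are left out, and the average and the difference of the responses have none with only 2 groups. With no detection calls, how far the signal of a dim member lies above background is not known here.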
